A study of Mus musculus with 12 samples.

Results

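Double-stranded RNA (dsRNA) is met in every cell by a set of proteins that edit it, carry it, unwind it or pass it on to other enzymes. The 9 genes described here encode such proteins: the editing enzymes Adar and Adarb1, the transport and decay factors Stau1 and Stau2, the helicase Dhx9, the nuclear factor Ilf2 and its relative Zfr, and the paired adaptors Prkra and Tarbp2. They were taken as a listed set, found by removing the version suffix of the Ensembl identifiers and matching these to mouse symbols, and all 9 were among the 48526 gene rows of the files. The set was not chosen by a measured value. Ilf2 and Zfr are grouped with the others because they share a domain with which dsRNA-binding partners pair, rather than by a dsRNA-binding domain of their own.

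The RNA came from epithelium of the small intestine, isolated with EDTA from its proximal part, of 4 female mice aged 3 months. That origin is from the extraction protocol, whereas the sample titles speak of epithelium of the whole intestine. In 2 animals, named DKO, deletion of KAT2A and KAT2B (lysine acetyltransferases) was induced by tamoxifen at 100 mg/kg, injected intraperitoneally on 4 successive days in 10% ethanol and 90% corn oil. The 2 control animals received the ethanol and corn oil without tamoxifen, and epithelium was taken 2 days after the last injection. Each animal gave an input library and pulldowns with the antibodies J2 and K1, which bind dsRNA, so that 12 libraries form 6 groups of 2. Genotype and tamoxifen cannot be told apart in this design. The Cre driver, the alleles and the strain are not given in the sources used here. Since these are whole preparations, fewer cells of a type and less RNA per cell cannot be told apart either.

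ADAR enzymes convert adenosine to inosine within dsRNA, which weakens the duplex and keeps the cell's own RNA from being taken for viral RNA by sensors. In intestinal epithelium, loss of Adar is known to set off an interferon response and death of the cells. PACT, the product of Prkra, and TRBP, the product of Tarbp2, bind Dicer and act in opposite ways on the kinase PKR, which stops translation when it meets dsRNA. Read counts measure the transcripts of these genes. They measure neither the proteins nor editing, and a pulldown measures how much of a gene's own RNA came down with the antibody, not what its protein binds.

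Input libraries held 10307281 to 11474107 counts in genes, control pulldowns 13308021 to 16139531 and DKO pulldowns 2220291 to 5826361. The DKO pulldowns stood apart. Their 10 most abundant genes took 24.7% to 33.6% of the counts, against 6.57% to 7.67% in control pulldowns, and their replicates correlated at 0.901 (J2) and 0.929 (K1) on the log2 scale of CPM (counts scaled to a library of a common size), against 0.984 or more in the other groups. The 9 markers of mesenchyme and muscle summed to 25.6 to 210 CPM in DKO pulldowns, 8.08 to 44.7 CPM in control pulldowns and 6.61 to 12.7 CPM in input, with Des at 0 in DKO K1. The 10 epithelial markers were all detected in each group and summed to 4390 to 15400 CPM over the 12 libraries. The 11 leukocyte markers summed to 110 to 119 CPM in control input and 72.1 to 79.6 CPM in DKO input. Of the 9 tested in input, 5 were called lower and 1 higher in DKO, where 35.9% of all genes tested were called. Mitochondrial genes took 8.76% to 18.6% of the counts in DKO pulldowns and 1.4% to 2.77% in control pulldowns. Reads mapped to several places were 15.8% to 46.7% of those listed in DKO pulldowns. They were 5.54% to 6.56% in control pulldowns and 6.97% to 8.05% in input. The part of depth, of the mitochondrial share, of reads mapped to several places and of these markers in the results below was not tested. Kat2b was lower in DKO in input (log2 fold change -1.51), J2 (-1.43) and K1 (-0.98), all called. Its input call was kept in 11 of 11 other settings, its J2 call in 5 and its K1 call in 8. DESeq2 called neither pulldown value (adjusted p 0.0536 in J2 and 0.0636 in K1). Kat2a was lower in input (-0.88) and K1 (-1.75), and its J2 value of -1.18 was not called (edgeR adjusted p 0.104).

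Levels are given as CPM after TMM scaling, and differences as log2 fold changes with their standard error (SE). A gene is said to be called where its adjusted p in edgeR's quasi-likelihood test was under 0.05 over all genes tested. Adjusted p-values below are edgeR's where no other tool is given. With 2 animals a group, the p-values rest on few degrees of freedom, 2 in a comparison of 4 libraries and 4 in one of 8.

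Compared per length of exon, the 9 genes spanned a wide range in control input. Dhx9 was highest at 13.7 CPM per kb, followed by Zfr at 12.8, Stau1 at 9.05, Adar at 7.85, Prkra at 6.61, Tarbp2 at 3.86, Ilf2 at 2.30 and Stau2 at 1.82. Adarb1 came last, at 0.0064 CPM per kb. No neighbours in this order overlapped between their 2 libraries. In DKO input Adar stood first at 25.2 CPM per kb, above Zfr at 14.7 and Dhx9 at 11.6, and it stayed first in both DKO pulldowns, at 42.8 in J2 and 37.6 in K1. In DKO input the ranges of Prkra and Tarbp2 overlapped, as did those of Ilf2 and Stau2. The exon length is that of all annotated exons together, so a gene with long alternative exons, such as Ilf2, is placed lower than its main transcript would be.

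**Figure D1:**
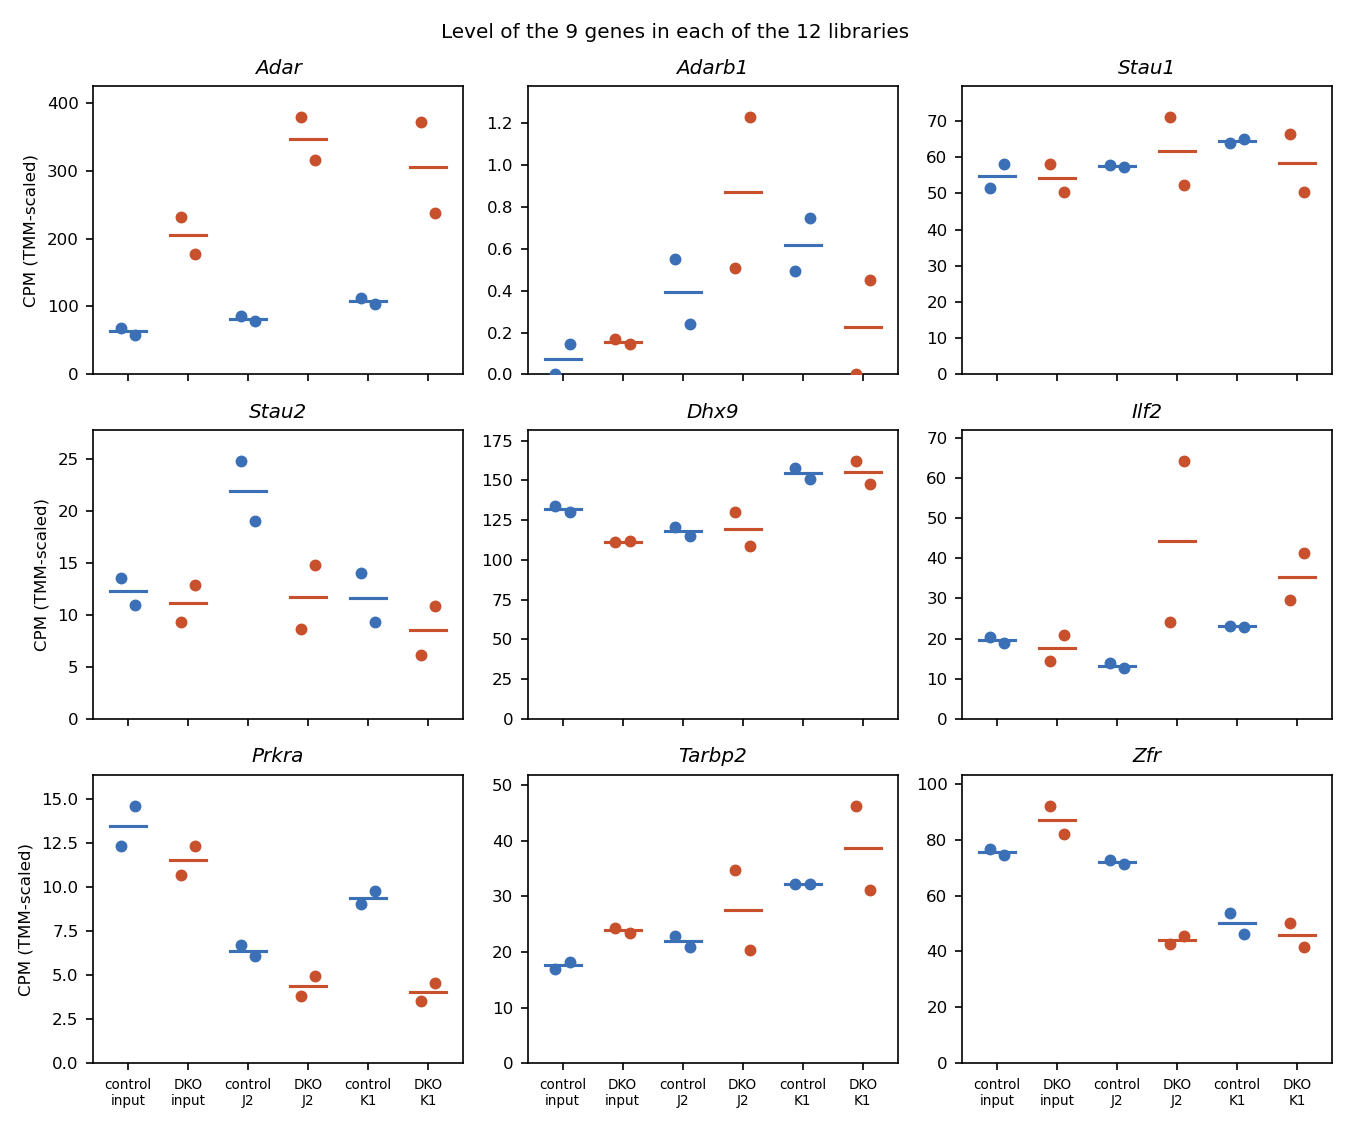
CPM after TMM scaling (vertical axes, each from 0 and with its own scale) of the 9 genes in control (blue) and DKO (red) libraries of input, J2 and K1. Each point is 1 library and each bar the mean of 2. Adar is higher in every DKO library than in every control library, Adarb1 stays under 1.3 CPM, and Ilf2 stands highest in DKO J2 replicate 2 at 64.1 CPM.

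Adar was the member that changed with genotype in every kind of library. The gene lies at chr3:89715022-89753446 on the plus strand (GRCm38, GENCODE M21). In input it measured 68.9 and 58.5 CPM in control (866 and 812 counts) and 232 and 177 CPM in DKO (2786 and 2407 counts). The lower DKO library was far above the higher control library. The log2 fold change was 1.72 (SE 0.17, adjusted p 0.00042), which is 3.30-fold, and 854 of the 15088 genes tested had a larger value. Across 11 other settings the value ran from 1.52 to 1.94 and the gene was called in 11.

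In J2 pulldowns Adar measured 86.4 and 78.2 CPM in control and 379 and 315 CPM in DKO. The groups did not overlap, and the log2 fold change was 2.13 (SE 0.40, adjusted p 0.0374). In K1 pulldowns it measured 112 and 103 CPM in control and 372 and 238 CPM in DKO, with a log2 fold change of 1.68 (SE 0.30, adjusted p 0.00902). Both pulldown calls were lost when either control animal was left out (adjusted p 0.662 and 0.696 in J2, 0.147 and 0.189 in K1), although the values stayed between 1.57 and 2.16. Without either DKO animal the values were 2.02 and 2.26 in J2 and 1.39 and 1.94 in K1. The calls in these settings rest on the spread of the control libraries alone.

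No difference in Adar's enrichment between the genotypes was called. Set against the input of the same animal, J2 was higher by 0.33 and 0.42 log2 CPM in control and by 0.71 and 0.83 in DKO. K1 was higher by 0.70 and 0.82 in control and by 0.68 and 0.43 in DKO. All 8 differences were positive, but none of the 4 enrichments was called by edgeR with all animals: 0.37 for control J2 (adjusted p 0.37), 0.79 for DKO J2 (adjusted p 0.0829), 0.68 for control K1 (adjusted p 0.0661) and 0.50 for DKO K1 (adjusted p 0.17). Control K1 was called in 4 of 11 other settings, among them the replicate block of the animals (0.68, adjusted p 0.0201). DKO J2 was called in 3 of 11, by DESeq2 (0.71, adjusted p 0.0296) and by edgeR without DKO replicate 1 (0.72) or 2 (0.73). Control J2 and DKO K1 were each called in 1 of 11, without DKO replicate 2 (0.38 and 0.59). Calls without a DKO animal leave out the spread between the DKO animals. The difference of enrichment, DKO minus control, was 0.42 (SE 0.42, adjusted p 0.556) for J2 and -0.18 (SE 0.38, adjusted p 0.807) for K1.

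The counts were made without strand, and 16.8% of Adar's exon bases overlap Chrnb2 on the opposite strand. Chrnb2 had 46 and 57 counts in control input (3.66 and 4.11 CPM) and 49 and 59 in DKO input (4.09 and 4.34 CPM). In J2 it measured 13.6 and 17.4 CPM in control and 3.57 and 3.39 in DKO. In K1 it measured 7.9 and 9.76 CPM in control and 2.61 and 0 in DKO. The part of this overlap in Adar's values was not tested. Adar has several promoters, of which one is induced by interferon and gives the long, partly cytoplasmic form of the enzyme. The counts per gene do not separate the forms. RefSeq lists 3 start windows of Adar (GRCm38.p6, each from 250 bases before to 50 bases after a start), with starts at positions 89715022, 89715238 and 89730718 of chromosome 3. They were searched on both strands for GAAANNGAA, the core of the element through which interferon acts on its target genes. Only the window of the third start held it, with 2 matches. With 1 further A required at the 3′ end of the core, no window of Adar matched.

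The sequences show these matches beside those of genes that interferon induces, each as 30 bases of the strand the gene lies on, with the matched bases in capitals. The first Adar site begins 249 bases before the start (chr3:89730468-89730497) and the second at base 34 of the transcript (chr3:89730738-89730767). The windows of Eif2ak2, Isg15 and Oas3 hold 2, 3 and 2 matches, of which 1 each is shown. The Eif2ak2 site (chr17:78882535-78882564, minus strand) begins at base 19. The Isg15 site (chr4:156200871-156200900, minus strand) begins 72 bases before the start, and the Oas3 site (chr5:120777709-120777738, minus strand) 69 bases before it.
Adar, first site: gGAAAAGGAActtcctcacagggcggagag
Adar, second site: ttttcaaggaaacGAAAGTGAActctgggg
Eif2ak2: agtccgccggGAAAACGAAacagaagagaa
Isg15: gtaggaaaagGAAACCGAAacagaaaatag
Oas3: aggagaaaacGAAAGTGAAgggaggtgact
The second Adar site and the Oas3 site shown hold the same 9 letters, and neither is followed by a further A. The other Oas3 match is followed by one. Of all 32851 windows of this length, 8.56% hold GAAANNGAA, and of the 12 interferon-induced genes listed, 8 have a window and 7 of these hold it. All 7 also hold the core with 1 further A, which Adar lacks and which 3.44% of all windows hold. Of the other members with a window (8 of the 9 have one), none had a match. A match is a run of letters and was not tested for binding.

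Adar stood beside genes of the interferon response that moved more. In input all 12 listed genes of that response to dsRNA were called higher in DKO (35.9% of all genes tested were called in either direction), with a median log2 fold change of 2.96 against -0.00097 over all genes tested and the highest value, 6.28, for Oas2. The sensors Ifih1 (2.00) and Ddx58 (1.75) and the kinase gene Eif2ak2 (1.68) were closest to Adar's 1.72. Within J2 libraries 6 of the 12 were called (12.2% of all genes tested) and within K1 libraries 11 (27.1% of all), each of them higher. These J2 calls were lost without control replicate 2 and, except that of Dhx58, without control replicate 1. The K1 calls of Ifih1, Ddx58 and Eif2ak2 were lost without either control animal, while that of Oas2 was kept in 11 of 11 other settings. This list was fixed as context for Adar with earlier results known and gives no independent evidence of the direction.

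Adarb1, the second active ADAR, which edits chiefly neuronal transcripts, was at or near the floor of detection. It had 0 and 2 counts in control input and 2 and 2 in DKO input. In J2 it had 8 and 3 counts in control against 2 and 4 in DKO. In K1 the counts were 8 and 10 in control against 0 and 1 in DKO. It failed the filter on low counts in all 9 comparisons, so it has no test and no fold is given, and a count of 0 allows up to 3 counts in that library. The brain relative Adarb2 and the testis gene Adad1 also had too few counts to be tested.

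The Staufen genes encode RNA-binding proteins that move messages along the cytoskeleton and recruit their decay. Stau1 (chr2:166947549-166996299, minus strand) was level over the study. It measured 51.6 and 58.2 CPM in control input and 58.0 and 50.3 in DKO input, with 57.8 and 57.3 for J2 in control, 71.1 and 52.4 for J2 in DKO, 64.0 and 65.0 for K1 in control, and 66.3 and 50.3 for K1 in DKO. The genotype ranges overlapped in all 3 kinds of library. Its log2 fold change of DKO over control was 0.019 (SE 0.13) for input, 0.15 (SE 0.30) for J2 and 0.041 (SE 0.24) for K1. None of its 9 comparisons was called.

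Stau2 (chr1:16228674-16520112, minus strand), the form known from neurons, was lower than Stau1 per length in each group. It measured 13.6 and 11 CPM in control input, 24.8 and 19.1 in control J2 and 14.0 and 9.32 in control K1. The DKO animals gave 9.34 and 12.9 CPM in input, 8.67 and 14.8 in J2 and 6.18 and 10.9 in K1. The control J2 libraries were the highest of the 12. J2 over input in control gave 0.84 (SE 0.33, adjusted p 0.0832), not called, and called with the replicate block of the animals (0.84, adjusted p 0.0442). The same enrichment in DKO was 0.094 (SE 0.35), and the difference between genotypes, -0.75 (SE 0.47, adjusted p 0.345), was not called. DKO pulldown values of Stau2 rest on 24 to 48 counts a library.

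Dhx9 (chr1:153455758-153487660, minus strand) encodes RNA helicase A, which unwinds duplexes formed by inverted repeats. It was well measured, with 327 to 2557 counts a library, and stayed close to its control level. Input held 134 and 130 CPM in control and 111 and 112 CPM in DKO. These did not overlap, but the log2 fold change of -0.20 (SE 0.12) was not called (adjusted p 0.203). J2 held 121 and 115 CPM in control against 130 and 109 in DKO. K1 held 158 and 151 CPM in control against 162 and 148 in DKO. In both genotypes the K1 values lay above input. The enrichment of 0.40 (SE 0.21) in DKO K1 was not called by edgeR (adjusted p 0.158) and was called by DESeq2 (0.44, adjusted p 0.0405).

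Ilf2 (chr3:90476126-90488379, plus strand) encodes NF45, which acts in the nucleus in a complex with dsRNA-binding partners. Its J2 values stood below input in both control animals and above it in both DKO animals, whereas K1 was above input in both genotypes. Input held 20.5 and 19.0 CPM in control and 14.4 and 21.0 in DKO, which overlap. J2 held 13.8 and 12.6 CPM in control, below input, and 24.2 and 64.1 CPM in DKO, above input. The spread between the DKO J2 animals was, as a ratio, the widest among the 8 tested members.

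Against the input of the same animal, Ilf2 in J2 was lower by a log2 CPM difference of -0.57 and -0.58 in control and higher by 0.74 and 1.61 in DKO. The enrichment was called in DKO (1.34, SE 0.42, adjusted p 0.0493) and not in control (-0.57, SE 0.42, adjusted p 0.328). The DKO value fell to 0.77 without DKO replicate 2. The call was lost in 5 of 11 other settings. These were without either control animal, with RLE size factors (adjusted p 0.0601), without TMM (0.214) and after thinning all libraries to the smallest (0.106). The difference of enrichment itself was 1.92 (SE 0.59, adjusted p 0.104) and was not called by edgeR. It was called in 4 of 11 other settings, among them DESeq2 (1.89, adjusted p 0.0496). DKO over control within J2 was 1.84 (SE 0.57, adjusted p 0.087), called in 6 of 11 other settings, among them DESeq2 (1.87, adjusted p 0.0195). In K1 the DKO enrichment of 0.90 (SE 0.26, adjusted p 0.0231) was called, from 29.5 and 41.2 CPM against the input values above, and was lost without either control animal (adjusted p 0.0973 and 0.0925), without TMM (0.175) and in 1 fit of all 12 libraries (0.0901). Against the input of the same animal, K1 was higher by 0.17 and 0.27 log2 CPM in control and by 1.02 and 0.97 in DKO. The K1 difference of enrichment was not called in any setting (0.78 with the replicate block, adjusted p 0.0805). Snapin lies on the opposite strand over 4.13% of Ilf2's exon bases, and 17.5% of Ilf2's longest transcript matches it. Snapin measured 4.60 and 3.80 CPM in control J2 and 1.27 and 4.93 CPM in DKO J2.

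**Figure D2:**
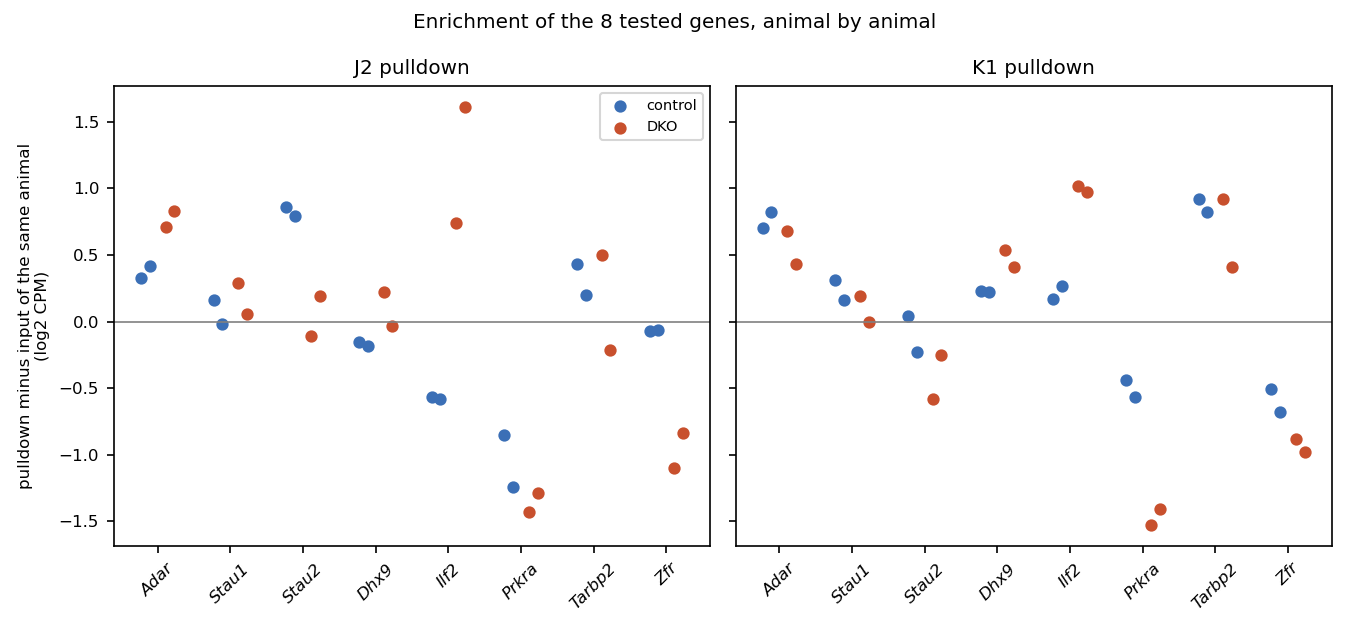
Log2 CPM of the J2 (left) or K1 (right) pulldown minus that of the input of the same animal, for the 8 members with enough counts, in control (blue) and DKO (red). Each point is 1 animal. Ilf2 in J2 lies below 0 in both control animals (-0.57 and -0.58) and above 0 in both DKO animals (0.74 and 1.61), and Prkra lies below 0 in all 8 pulldowns.

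Prkra (chr2:76629898-76648015, minus strand) had the lowest enrichment of the tested members in J2 of both genotypes and in DKO K1. Input held 12.3 and 14.6 CPM in control and 10.7 and 12.3 in DKO. J2 held 6.72 and 6.07 CPM in control against 3.82 and 4.93 in DKO. K1 held 9.01 and 9.76 CPM in control against 3.56 and 4.53 in DKO. Each pulldown value lay below both input values of its genotype. Pulldown over input was called for control J2 (-1.06, SE 0.27, adjusted p 0.0228), DKO J2 (-1.37, SE 0.31, adjusted p 0.0171) and DKO K1 (-1.63, SE 0.31, adjusted p 0.00342).

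In control K1 the enrichment of Prkra was -0.60 (SE 0.24, adjusted p 0.0667), called in 6 of 11 other settings, among them the replicate block (-0.59, adjusted p 0.0417) and DESeq2 (-0.72, adjusted p 0.0362). The DKO K1 value was called in all 11 other settings, from -1.97 to -1.53. Both J2 calls were lost without either control animal and after thinning (-1.10, adjusted p 0.0988, in control and -1.39, adjusted p 0.059, in DKO). DKO pulldown values of Prkra rest on 10 to 16 counts a library, and the difference of enrichment in K1, -1.03 (SE 0.39, adjusted p 0.144), was not called. DKO over control was -0.18 in input, -0.48 in J2 and -1.05 in K1, none called with all animals, and the K1 value was called in 3 of 11 other settings.

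Tarbp2 (chr15:102518192-102523676, plus strand) lay above input in K1 of both genotypes, where its relative Prkra lay below it. Input held 17 and 18.2 CPM in control and 24.4 and 23.5 in DKO, with a log2 fold change of 0.49 (SE 0.13, adjusted p 0.0267). This call was lost in 6 of 11 other settings, among them DESeq2 (0.49, adjusted p 0.0952) and leaving out either control animal (0.43 and 0.53, adjusted p 0.237 and 0.15). K1 held 32.2 and 32.2 CPM in control and 46.3 and 31.2 in DKO. K1 over input was called in both genotypes, at 0.79 (SE 0.21, adjusted p 0.0123) in control and 0.63 (SE 0.22, adjusted p 0.0433) in DKO.

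The control K1 call of Tarbp2 was lost without either control animal (adjusted p 0.345 and 0.276). The DKO K1 call was lost in 7 of 11 settings, and without DKO replicate 1 its value was 0.25 (adjusted p 0.352). J2 held 22.9 and 21.0 CPM in control and 34.7 and 20.4 in DKO, with no call. Of Tarbp2's longest transcript, 63.8% is near-identical to the gene model Gm18584, so its count is uncertain. Gm18584 itself had 0 to 8 counts a library.

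Zfr (chr15:12117831-12185683, plus strand) encodes a zinc finger protein that pairs with NF45 and is known to limit the interferon response. Input held 76.6 and 74.5 CPM in control and 92.1 and 82.1 in DKO, which did not overlap but were not called (0.25, SE 0.12, adjusted p 0.15). J2 held 72.7 and 71.4 CPM in control, level with input, and 42.8 and 45.6 CPM in DKO, well under it. K1 held 53.9 and 46.3 CPM in control and 50.1 and 41.7 in DKO, under input in both genotypes.

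Pulldown over input was called for Zfr in DKO J2 (-0.95, SE 0.23, adjusted p 0.0201), control K1 (-0.67, SE 0.19, adjusted p 0.0198) and DKO K1 (-1.0, SE 0.20, adjusted p 0.00479). The DKO K1 value was called in all 11 other settings, from -1.32 to -0.91. The DKO J2 and control K1 calls were lost without either control animal (adjusted p 0.193 and 0.149, and 0.306 and 0.483). The first was also lost after thinning (-0.79, adjusted p 0.0511) and the second in 1 fit of all 12 libraries (-0.59, adjusted p 0.0635). J2 over input in control was -0.062 (SE 0.22), and the difference of J2 enrichment between genotypes was -0.89 (SE 0.31, adjusted p 0.132), not called by edgeR and called by DESeq2 (-0.93, adjusted p 0.0151).

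**Figure D3:**
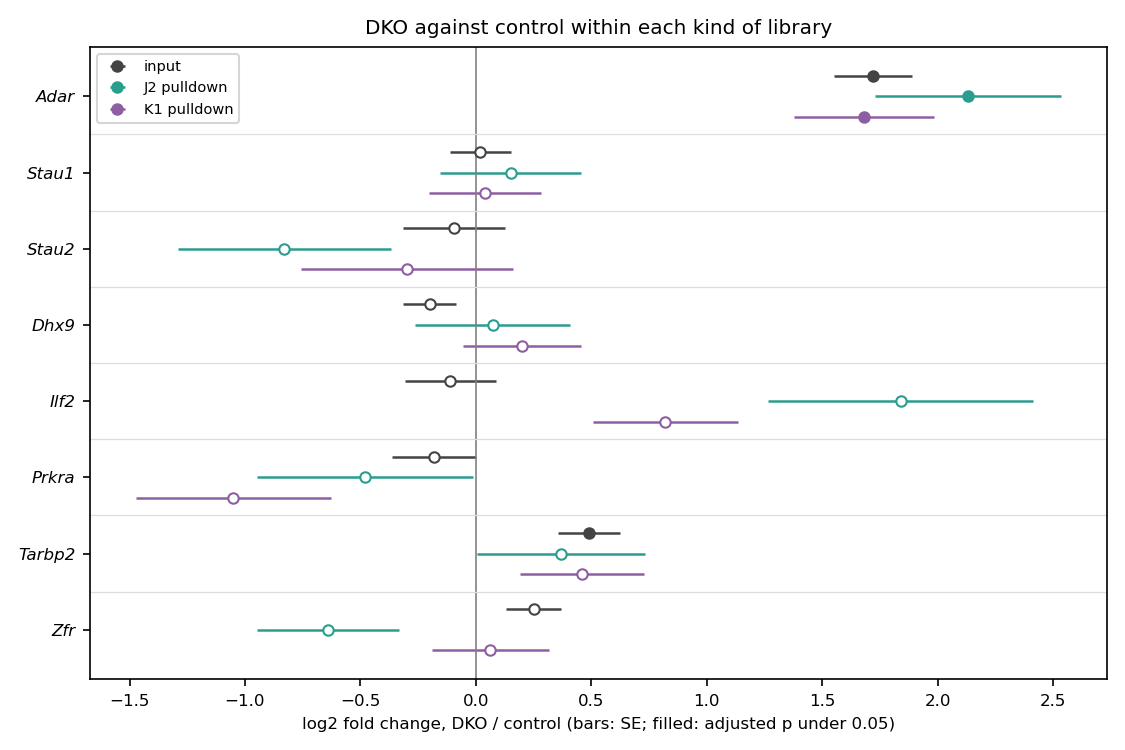
Log2 fold change of DKO over control (horizontal axis) for the 8 members with enough counts, in input, J2 and K1 libraries. Points are edgeR estimates, bars are 1 SE and filled points have an adjusted p under 0.05. Adar is filled in all 3 kinds of library (1.72, 2.13 and 1.68), Tarbp2 in input alone (0.49), and the other 6 in none.

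Counted over the set, 8 of the 9 members were tested in each of the 9 comparisons. DKO over control called 2 of 8 in input, where 35.9% of all tested genes were called, 1 of 8 in J2 (12.2% of all) and 1 of 8 in K1 (27.1% of all). J2 over input called 1 of 8 in control (29.8% of all) and 3 of 8 in DKO (25.7% of all). K1 over input called 2 of 8 in control (39.8% of all) and 4 of 8 in DKO (35.6% of all). The difference of enrichment called 0 of 8 by edgeR in J2 (2.71% of all) and 0 of 8 in K1 (5.47% of all). Without adjustment, 2 of 8 had a p under 0.05 in the J2 difference (Ilf2 and Zfr), both of which DESeq2 called, and 1 of 8 in the K1 difference (Prkra), where DESeq2 called 0. With 8 genes these shares are read as near the background and not as a result about the set. The median log2 fold change of the 8 was -0.038 in input, 0.11 in J2 and 0.13 in K1, against -0.00097, 0.031 and -0.022 over all genes tested. Single animals moved the counts: DKO over control in J2 called 3 and 5 of 8 without DKO replicate 1 and 2, and 0 without either control animal, and J2 over input in DKO called 4 and 5 of 8 and 0 in the same settings. In those settings DKO over control in K1 called 2 and 3 of 8 and 0, J2 over input in control 4 and 5 and 0, K1 over input in control 4 and 4 and 0, and K1 over input in DKO 3 and 5 and 2. DKO over control in input called 1 of 8, Adar, without either control animal. No difference of enrichment in K1 was called when an animal was left out, while Ilf2 and Zfr were called in the J2 difference without DKO replicate 1 and without DKO replicate 2.

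**Figure D4:**
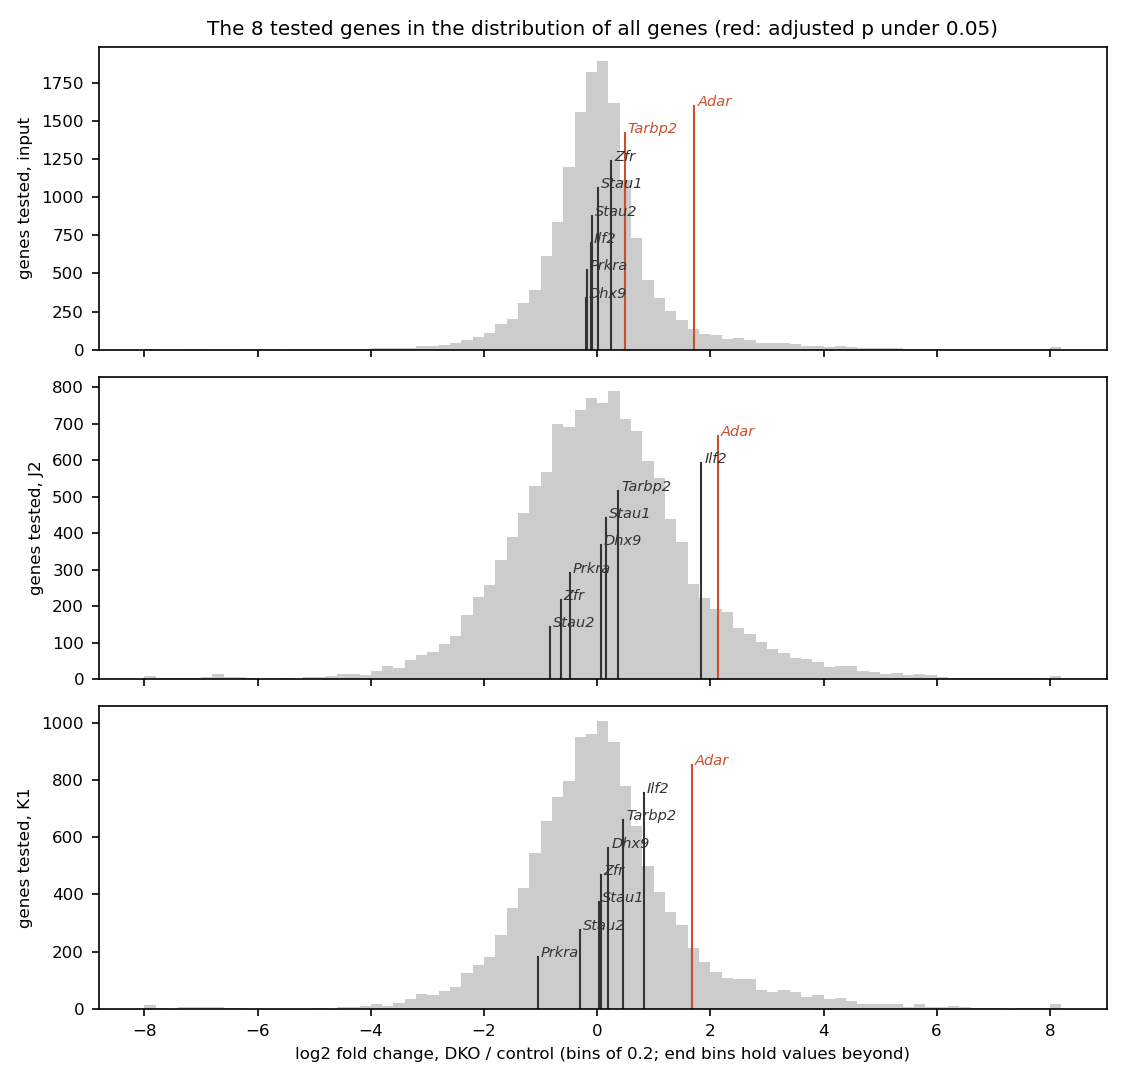
Number of genes (vertical axis) by log2 fold change of DKO over control (horizontal axis, bins of 0.2) among all genes tested in input, J2 and K1, with the 8 members marked by labelled lines (red where the adjusted p is under 0.05). Adar lies in the upper tail of all 3 panels, with 854, 1204 and 1365 genes above it, and 6 members stay between -0.20 and 0.25 in input.

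The 15 other listed genes with a dsRNA-binding domain were examined beside the set, of which 13 had enough counts in input. DKO over control called 7 of these 13 in input (35.9% of all genes tested), 2 higher and 5 lower, with a median of -0.38. Within J2 libraries 2 of 12 were called (12.2% of all), both lower, and within K1 libraries 4 of 12 (27.1% of all), 1 higher and 3 lower. Strbp, best known from the male germ line, gave the clearest loss from DKO pulldowns. It measured 55.5 and 55.0 CPM in control input and 22.4 and 27.2 in DKO input, a log2 fold change of -1.11 (adjusted p 0.000925).

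In J2 Strbp measured 176 and 184 CPM in control against 13 and 9.87 in DKO. In K1 the values were 136 and 126 CPM in control against 13.1 and 12.2 in DKO. It was above input in both control pulldowns (1.71 in J2) and below input in DKO pulldowns (-1.09 in J2 and -1.05 in K1), all 4 called. The DKO K1 call was kept in 11 of 11 other settings. The control J2, control K1 and DKO J2 calls were lost without either control animal. The difference of enrichment was -2.79 (SE 0.36, adjusted p 0.0291) in J2 and -2.22 (SE 0.29, adjusted p 0.00785) in K1. With the replicate block the J2 difference was not called (-2.79, adjusted p 0.0712). Without either control animal neither difference was called, with values from -3.16 to -1.80 over all settings. Control and DKO pulldowns also differed in depth, top-gene share, reads mapped to several places and mesenchymal markers as given above.

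The enzymes that cut microRNA precursors were both less enriched by K1 in DKO. Dicer1 measured 75.4 and 73.2 CPM in control input and 183 and 185 in control K1, against 44.7 and 48.5 in DKO input and 58.7 and 42.1 in DKO K1. Its K1 difference was -1.19 (SE 0.30, adjusted p 0.0495), and its input change -0.63 (adjusted p 0.00551). Drosha measured 58.3 and 58.4 CPM in control input and 124 and 127 in control K1, against 74.4 and 82.7 in DKO input and 51.5 and 62.0 in DKO K1. Its K1 difference was -1.58 (SE 0.29, adjusted p 0.0203), and its input change 0.47 (adjusted p 0.0197). This input call of Drosha was lost without TMM (0.34, adjusted p 0.108), after thinning (0.46, adjusted p 0.0602) and without either control animal. In the fit of all 12 libraries the input calls of Drosha (0.43, adjusted p 0.329) and Dicer1 (-0.67, adjusted p 0.109) were both lost. Neither K1 difference was called without either control animal, in the fit of all 12 libraries (adjusted p 0.127 and 0.0715) or after thinning (0.125 and 0.0717), and that of Dicer1 was also lost with RLE size factors (-1.03, adjusted p 0.0832).

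Of the 13 listed genes of microRNA processing, 5 were called in the K1 difference (5.47% of all genes tested) and all 5 were lower in DKO: Dicer1, Drosha, the Argonaute gene Ago3 (-1.89) and the silencing factors Tnrc6b (-2.31) and Tnrc6c (-1.41). None of the 5 was called without either control animal or in the fit of all 12 libraries, and Ago3 and Tnrc6c were also lost after thinning (adjusted p 0.0694 and 0.0582). In control K1, 6 of the 13 were called above input and 1 below (39.8% of all). The list's median in the K1 difference was -1.02, against -0.20 over all genes tested. Eif2ak2, which encodes PKR, rose in input by 1.68 and was below input in DKO K1 (-1.19, adjusted p 0.00445).

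**Figure D5:**
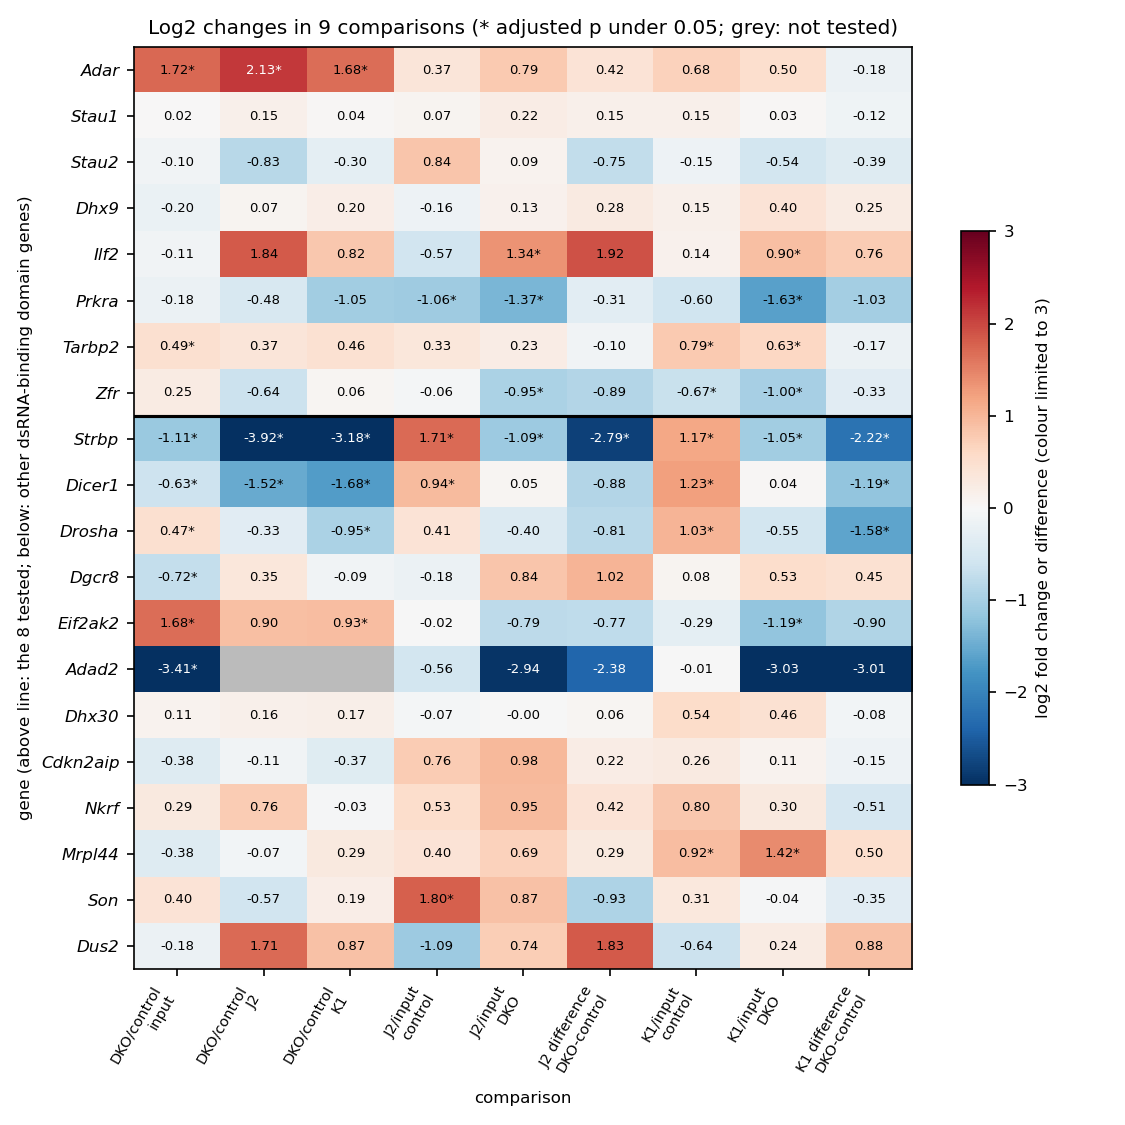
Log2 fold changes, and differences of enrichment, of the 8 tested members (above the line) and of 12 of the 13 other tested genes with a dsRNA-binding domain (below it) in 9 comparisons, with an asterisk where the adjusted p was under 0.05 and grey where a gene was not tested. Strbp is lower in DKO than in control in input, J2 and K1, down to -3.92 in J2, while Adar is higher in DKO in input, J2 and K1.

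Transcripts with a known site of A-to-I recoding were listed because they are what ADAR enzymes act on. Of 11 listed, 9 had enough counts. In input 2 of 9 were called (35.9% of all genes tested), both higher in DKO, among them Tmem63b (0.67), whose call was lost without DKO replicate 1 (0.36) and in the fit of all 12 libraries (0.63, adjusted p 0.418). In J2 and in K1 0 of 9 were called between genotypes by edgeR (12.2% and 27.1% of all). At an unadjusted p under 0.05 there were 2 and 4, and DESeq2 called 1 each. In both differences of enrichment edgeR also called 0 (2.71% of all for J2 and 5.47% for K1). There 2 for J2 and 1 for K1 had an unadjusted p under 0.05, and DESeq2 called 1 each. Gria2 and Igfbp7 were not tested. Cdk13 was above input in DKO J2 (1.29), control K1 (0.79) and DKO K1 (1.23), all called. Blcap was below input in the same comparisons (-1.11, -0.73 and -0.88), all called. Without either control animal these calls were lost, except that of Cdk13 in DKO K1. Editing was not measured.

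Perfect inverted repeats, which can fold into dsRNA, were short in the members' own transcripts. In the longest transcript of each gene, the longest arm that recurs as its reverse complement was 13 bases in Adarb1, 12 in Adar, Stau1, Dhx9 and Zfr, 11 in Stau2, Prkra and Tarbp2, and 10 in Ilf2. Over the protein-coding genes tested for J2 the median arm was 12 bases, and 14.1% had more than 13. Across all 15874 genes tested in J2 over input with a known length, the log2 enrichment in control correlated with exon length at a Spearman rho of 0.404, and in DKO at 0.209. These are descriptions across genes of the same libraries, which share depth and base composition. Prkra has the shortest exon length of the members, at 2028 bases, against 8118 for Adar. The longest transcript has 1523 bases for Tarbp2, 1614 for Prkra and 2027 for Ilf2. Tarbp2 was called above input in K1 of both genotypes, and Ilf2 in both DKO pulldowns. Each of these calls was lost in some of the other settings, as given above. The part of length in the members' enrichment was not tested.

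The genes with the most similar profiles were sought by Pearson correlation of log2 CPM over the 12 libraries, among 9372 genes. For Adar these were Daxx, Hap1 and Pgs1, each at 0.991. For Prkra they were Hnrnpf (0.983), Txn2 (0.979) and Atp5j2 (0.978), and for Ilf2 Lin37 (0.976), Hdhd5 (0.972) and Pfdn2 (0.971). Zfr was closest to Tlr3 and Cul1 (0.962 each) and Tarbp2 to Fam129b (0.975). Stau1, which varied least, had no gene above 0.910 (Cyp2s1), Stau2 was closest to R3hdm1 (0.937) and Dhx9 to Hnrnpa0 (0.939). The 12 values of a gene share animals and antibodies and are not independent.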

How the data were processed

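The authors deposited 1 table of raw counts per library, whole-number reads per gene made without strand. Per the labels' protocols, random hexamers primed the libraries, ribosomal RNA was removed with strand kept, and reads with UMIs were paired at 150 bases. The submitters' processing notes name STAR 2.7.10b, UMI-tools 1.1.4, HTSeq 2.0.2, DESeq2 1.40.1 and edgeR 3.42.2, with the builds mm10 and GRCm38.p4, without roles or order. The annotation release is not given in the sources used here. Reads listed outside genes (6.76% to 27.0%), as ambiguous (3.65% to 6.11%) or as mapped to several places (5.54% to 46.7%) entered neither library sizes nor tests. The share mapped to several places was 15.8% or more in each DKO pulldown and 8.05% or less in the other libraries. There was no spike-in, so scaling removes differences in the total RNA pulled down, and no pulldown with an unspecific antibody was analysed here.

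The test was edgeR's (version 4.0.16 under R 4.3.3; quasi-likelihood, TMM, filterByExpr with a minimum of 10, Benjamini-Hochberg adjusted p under 0.05 over all genes tested). DKO and control were compared in 4 libraries of a kind, and pulldown and input, with their interaction, in 8. Log2 CPM used a prior count of 2. DESeq2 1.42.0, other scalings, no filter, a replicate block, 1 animal left out, 1 fit of all libraries and thinning to the smallest library (2220291 counts, chosen after seeing the data) were tried. Pulldown and input of a number come from the same animal per the labels (correlation of deviations 0.208 to 0.296), whereas control and DKO numbers name different animals (-0.097 to 0.0261). The labels name separate animals, so p-values of DKO over control measure the spread between animals. The main fits of pulldown over input and of the differences had no term for the animal. They treat input and pulldown of the same animal as independent, with 4 degrees of freedom, where the replicate block leaves 2. Replicates were different libraries (chi-square per degree of freedom 9.87 or more). Near-identical transcripts were sought with blastn 2.17.0+ (97% identity over 100 bases). The code was tested on simulated data. Gene models are GENCODE M21 and start windows RefSeq, GRCm38.p6. The members and lists were chosen with earlier results of these data known. All 9 members are named in every comparison, listed genes only where called (up to 6 a list), and the 3 most similar genes among those with a mean of at least 50 counts. A few listed genes counted in the lists are not reported here by name. J2 over input and K1 over input share the input libraries of their genotype.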

Additional observations from a re-analysis of the deposited data

Results flagged for a closer look

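Ilf2 is listed because its J2 enrichment had opposite signs in the genotypes: both control animals were below their input and both DKO animals above it. The difference was 1.92 on the log2 scale, and its test did not pass (edgeR adjusted p 0.104). The other entries are genes whose difference of enrichment passed edgeR's test. Strbp differed by -2.79 in J2 and -2.22 in K1, from above input in each control animal to below it in each DKO animal. Dicer1 differed by -1.19 in K1, Drosha by -1.58 in K1, Ago3 by -1.68 in J2 and -1.89 in K1, Tnrc6b by -2.31 in K1 and Tnrc6c by -1.41 in K1. The Ago3 J2 difference was not called with the replicate block (-1.69, adjusted p 0.0738). All of these rest on the shallow DKO pulldowns, whose part in the values was not tested.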

How the results depend on the processing

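Of 72 values of the 8 tested members, 68 kept their direction and side of the threshold with the replicate block and 0 reversed, 69 with RLE size factors, 64 with DESeq2, 62 in 1 fit of 12 libraries, 57 after thinning, 55 without the filter on low counts and 51 without TMM. Leaving out TMM moves the median of all genes, for example from -0.00097 to -0.13 for DKO over control in input and from -0.069 to -0.44 for J2 over input in control. The members' values that reversed were not called in any case, and the cause was not tested. The block made 4 values pass: 3 given in the text, and Ilf2 in DKO over control within J2 (1.64, adjusted p 0.041), where the numbers pair different animals. It changed no other call of a member. DKO pulldowns of 2220291 to 5826361 counts limit the genes of low level most, such as Prkra with 10 to 16 counts. The share of calls that were higher, with and without TMM, was 52.4% and 42.1% for DKO over control in input, 49.4% and 32.7% for DKO over control in J2, 48.6% and 27.4% for DKO over control in K1, 51.1% and 34.6% for J2 over input in control, 47.6% and 21.1% for J2 over input in DKO, 49.6% and 35.9% for K1 over input in control, 41.1% and 22.3% for K1 over input in DKO, 28.5% and 10.5% for the J2 difference, 25.1% and 13.2% for the K1 difference.

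Without TMM, the sign turned for Adar (-0.0032 for J2 over input in control), Stau1 (-0.12 for DKO over control in input, -0.33 for DKO over control in K1, -0.30 for J2 over input in control, -0.15 for J2 over input in DKO, -0.078 for K1 over input in control, -0.29 for K1 over input in DKO), Stau2 (-0.16 for J2 over input in DKO), Dhx9 (-0.018 for DKO over control in J2, -0.17 for DKO over control in K1, -0.22 for J2 over input in DKO, -0.084 for K1 over input in control), Ilf2 (-0.091 for K1 over input in control), Tarbp2 (-0.05 for J2 over input in control, -0.19 for J2 over input in DKO), Zfr (-0.31 for DKO over control in K1). Without the filter on low counts, the sign turned for Stau1 (-0.0099 for DKO over control in J2, -0.15 for DKO over control in K1, -0.02 for J2 over input in DKO, -0.16 for the J2 difference), Stau2 (-0.15 for J2 over input in DKO), Dhx9 (-0.098 for DKO over control in J2, -0.11 for J2 over input in DKO, -0.019 for the J2 difference), Tarbp2 (-0.0092 for J2 over input in DKO), Zfr (-0.13 for DKO over control in K1, 0.0011 for J2 over input in control). After thinning, the sign turned for Stau1 (-0.083 for DKO over control in input, -0.11 for J2 over input in control, -0.13 for K1 over input in control, 0.24 for the K1 difference), Stau2 (0.17 for DKO over control in K1, 0.36 for the K1 difference), Dhx9 (-0.055 for K1 over input in control), Ilf2 (-0.089 for K1 over input in control), Prkra (0.16 for DKO over control in input). In 1 fit of 12 libraries, the sign turned for Stau1 (-0.02 for DKO over control in input, -0.14 for DKO over control in K1), Zfr (-0.12 for DKO over control in K1). With DESeq2, the sign turned for Stau1 (0.042 for the K1 difference). With RLE size factors, the sign turned for Stau1 (0.038 for the K1 difference). With 1 animal left out these values crossed 0: Stau1 (-0.08 to 0.11 for DKO over control in input, -0.055 to 0.37 for DKO over control in J2, -0.11 to 0.20 for DKO over control in K1, -0.053 to 0.19 for J2 over input in control, -0.05 to 0.32 for J2 over input in DKO, -0.15 to 0.10 for K1 over input in DKO, -0.12 to 0.24 for the J2 difference), Stau2 (-0.36 to 0.13 for DKO over control in input, -0.77 to 0.14 for DKO over control in K1, -0.08 to 0.084 for J2 over input in DKO), Dhx9 (-0.037 to 0.20 for DKO over control in J2, -0.15 to 0.25 for J2 over input in DKO), Ilf2 (-0.42 to 0.13 for DKO over control in input), Tarbp2 (-0.03 to 0.72 for DKO over control in J2, -0.32 to 0.53 for J2 over input in DKO, -0.52 to 0.20 for the J2 difference, -0.52 to 0.033 for the K1 difference), Zfr (-0.088 to 0.17 for DKO over control in K1).

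Without TMM the number of genes called was 669 for the J2 difference. Without the filter on low counts the number of genes called was 4273 for DKO over control in J2, 2453 for the J2 difference, 1763 for the K1 difference. After thinning the number of genes called was 3398 for DKO over control in input, 2530 for J2 over input in control, 2105 for J2 over input in DKO, 3036 for K1 over input in control, 3511 for K1 over input in DKO, 211 for the J2 difference, 237 for the K1 difference. In 1 fit of 12 libraries the number of genes called was 1675 for DKO over control in input, 5984 for DKO over control in J2, 898 for the J2 difference, 59 for the K1 difference. With DESeq2 the number of genes called was 2884 for DKO over control in J2, 2018 for the J2 difference. With RLE size factors the number of genes called was 523 for the K1 difference. With the replicate block the number of genes called was 0 for the J2 difference, 1912 for the K1 difference. With 1 animal left out the number called ran from 0 to 6990 (432 with all) for the J2 difference, 0 to 3802 (870 with all) for the K1 difference, 3615 to 6226 (5421 with all) for DKO over control in input, 177 to 8635 (1606 with all) for DKO over control in J2, 1149 to 5819 (3487 with all) for DKO over control in K1, 0 to 10139 (4747 with all) for J2 over input in control, 337 to 7791 (4087 with all) for J2 over input in DKO, 281 to 9189 (6324 with all) for K1 over input in control, 3005 to 5970 (5659 with all) for K1 over input in DKO.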
